A study of Mus musculus with 10 samples.

Results

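The cadherin superfamily was examined in RNA sequencing of a mouse ovarian tumour line labelled with an shRNA against Il6 or a control shRNA. The members were all protein-coding entries of the deposited count table whose symbol starts with Cdh and a digit or with Pcdh. This rule took 92 entries of 55385, under 91 symbols, because Pcdha11 has 2 entries with different gene identifiers. The rule used names only, and no measured value. The line came from a tumour mutated in both Arid1a and Pik3ca, which all 10 samples therefore share, and its name is APV245 in the labels of the samples but APC245 in the design text. It is 1 line, and 5 samples carry the label IL6 shRNA1 (genotype label IL6 knockdown) while 5 carry the label of a non-mammalian control shRNA in the pLKO.1-puro vector, all untreated and in 1 batch. The sample labels describe cultured tumour cells, whereas the design text describes subcutaneous tumours grown from such lines. The labels do not say that the samples of a group were separate cultures or animals, so the p-values measure only the spread between these samples.

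Cadherins are calcium-dependent adhesion proteins. Their extracellular repeats bind cadherins on the neighbouring cell, and the tails of the classical cadherins hold beta-catenin and p120-catenin, which tie the contact to actin through alpha-catenin. Type I classical cadherins (E-, N- and P-cadherin and their relatives) build the adherens junctions of epithelia and many other tissues, and type II cadherins such as VE-cadherin and cadherin-11 mark endothelium, mesenchyme and neurons. Protocadherins lack the catenin-binding tail. The clustered protocadherins are arrays of variable first exons, each with its own promoter, and in the alpha and gamma clusters each is spliced to constant exons shared by the whole cluster. Ovarian tumours are known to express E-, N- and P-cadherin in differing proportions, and a shift from E- to N-cadherin is a usual sign of a mesenchymal state.

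Library totals ranged from 17905397 to 19934278 counts in the IL6 shRNA1 group and from 18224751 to 22682346 counts in the control group. Il6, the targeted gene, had a mean of 1.73 CPM in the IL6 shRNA1 group and 1.26 CPM in the control group, and so was not lower. It stood at 1.07, 1.83, 2.18, 1.801 and 1.75 CPM in the IL6 shRNA1 libraries 1 to 5 and 1.61, 0.438, 2.06, 1.34 and 0.8304 CPM in the control libraries 1 to 5, where CPM is counts scaled to the library size with TMM factors. The groups overlapped (log2 fold change of 0.44, SE 0.36, 95% interval -0.36 to 1.24, edgeR adjusted p = 0.44, exact two-sided permutation p = 0.21), so every direction below is that of libraries labelled IL6 shRNA1 and not of cells shown to have less Il6 RNA. Markers of other cell types were present in all libraries, so RNA of several cell types was measured together, and in such bulk samples fewer cells of a type and less RNA per cell cannot be told apart. Of 9 leukocyte markers tested, 6 were called higher in the IL6 shRNA1 libraries, beside 5.62% of all genes tested. Among them were Csf1r (276 against 151 CPM), C1qb (409 against 174 CPM), C1qa (467 against 204 CPM) and Adgre1 (109 against 49.1 CPM). The summed level of the list was 1140.1 to 2171 CPM in the IL6 shRNA1 libraries and 499 to 1244 CPM in the controls. Without IL6 shRNA1 library 5 edgeR called none of the 9, with a median log2 fold change of 0.85 and 7 at an unadjusted p under 0.05, beside 3863 of all 15215 genes then tested. On the first principal component, which held 54.3% of the variance, IL6 shRNA1 library 5 and control libraries 2 and 5 lay farthest from the centre.

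Among the 92 members, 9 had no count in any library. Another 31 had 1 to 93 counts over all libraries and did not pass the filter on low counts, and 52 members with 87 to 73041 counts were tested among 15064 genes. In edgeR's quasi-likelihood test, 8 of the 52 were lower in the IL6 shRNA1 libraries at an adjusted p under 0.05, none was higher, and 44 were not called. The called share was 15.4% of the tested members, beside 11.8% of all genes tested. For lower calls alone, the share of all genes was 6.16%, and for higher calls it was 5.62%. Of the 92 members, 60 lie on chromosome 18, which carries the protocadherin clusters, Cdh2, Pcdh1 and Pcdh12, and 5 of the 8 called members are among them. The 8 lower members were Cdh2, Cdh10 and Cdh24 among the classical cadherins, Pcdh18, and Pcdhga6, Pcdhga7, Pcdhgc3 and Pcdhgc5 of the gamma cluster. Library values of the groups did not overlap for 5 tested members (9.62%), all lower, beside 10.9% of all genes (6.13% lower and 4.81% higher). The median log2 fold change was -0.17 over the tested members and -0.01 over all genes, and 0.05 over the members with the leukocyte covariate described below. At an unadjusted p under 0.05 there were 17 lower and 6 higher members, or 44.2% beside 31.2% of all genes. DESeq2 called 9 members lower and 3 higher (Cdh1, Cdh13 and Cdh23), beside 1374 lower and 1653 higher of all 15064 genes. For limma voom the calls were 7 lower and none higher, beside 950 lower and 916 higher of all genes.

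**Figure D1:**
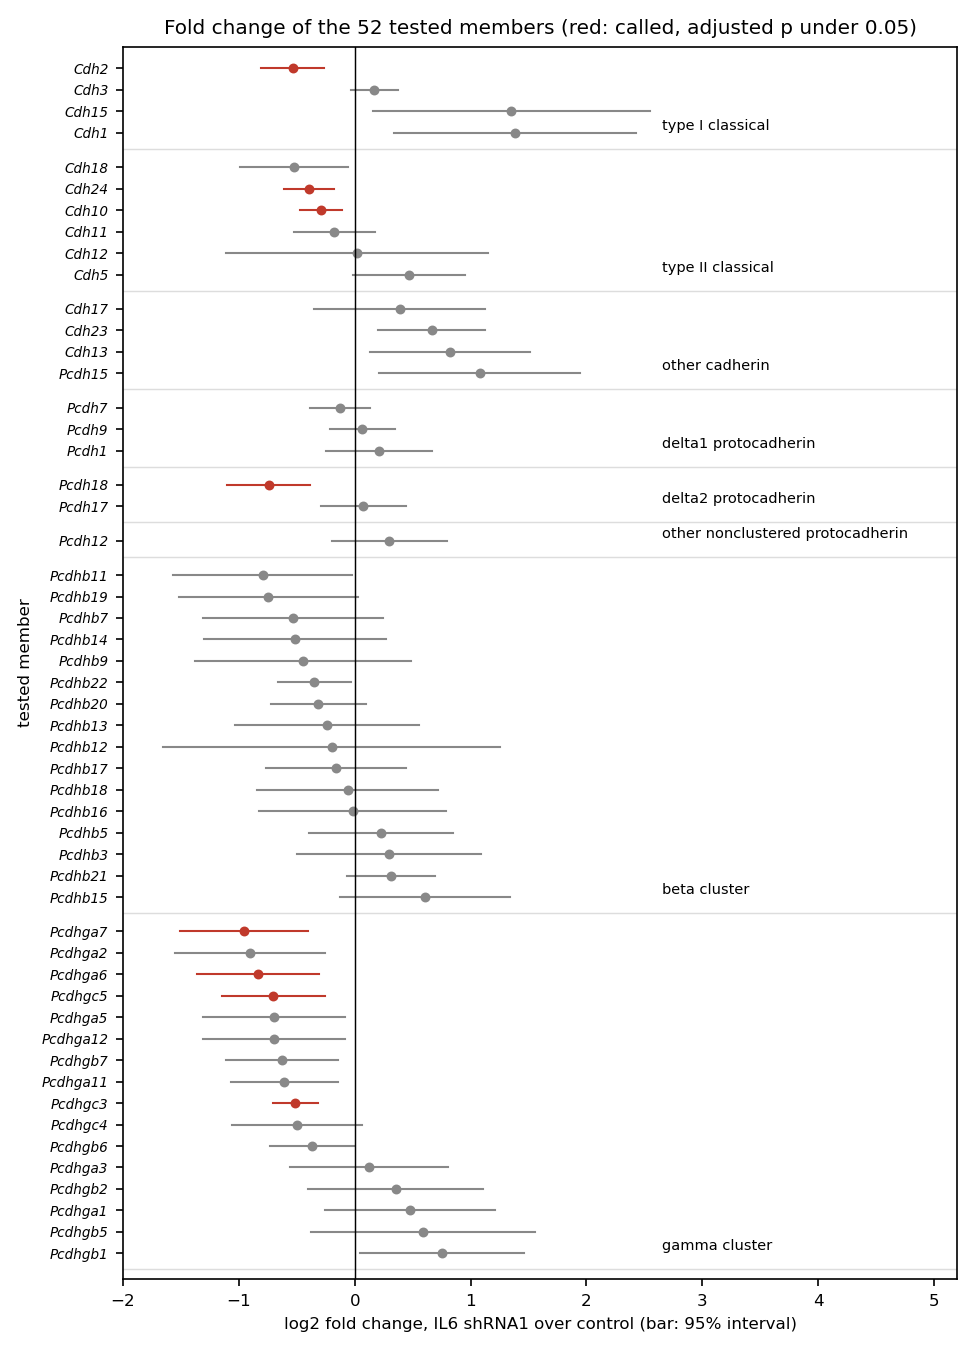
Log2 fold change (IL6 shRNA1 over control) of each of the 52 tested members, ordered within each family, with a bar for the 95% interval from edgeR. The 8 members in red passed an adjusted p of 0.05 and all lie below 0, and 4 of them are in the gamma cluster.

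The count of 8 changed with the libraries included. Leaving out 1 library gave 2 to 10 called members. Within the IL6 shRNA1 group, omission of library 2 left 2, that of library 3 left 3, and that of library 5 left 4, while that of library 4 left 3 and added Cdh23 as higher. The count was 2 without control library 2 and 3 without control library 5. Pcdhgc3 and Pcdh18 were called in all 10 of these omissions, Cdh24 in 6, Cdh2 in 5, Pcdhga7 in 4, Pcdhga6 and Pcdhgc5 in 3, and Cdh10 in 1. No member was called without the 3 libraries farthest from the centre, where 212 genes of the whole table were called, or with the leukocyte level as a covariate, where 38 were. In these fits 9 and 6 members had an unadjusted p under 0.05. In both the log2 fold changes of all 8 stayed below 0. For Pcdhgc3 they were -0.45 and -0.37, for Pcdh18 -0.50 and -0.34, for Cdh24 -0.39 and -0.47, for Cdh10 -0.23 and -0.19, and for Cdh2 -0.35 and -0.11. The other called gamma members moved closer to 0, Pcdhga7 from -0.96 to -0.54 and -0.11, Pcdhga6 from -0.84 to -0.52 and -0.20, and Pcdhgc5 from -0.70 to -0.45 and -0.13. The leukocyte covariate was -0.02 to 0.86 in the IL6 shRNA1 libraries and -1.29 to 0.11 in the controls, so it went largely with the group. The covariate fit therefore cannot tell a part of the leukocyte level from the group label. That part was not tested otherwise.

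Expression of the superfamily was concentrated in few genes. Cdh11, Cdh3 and Cdh2 together held 58.8% of all member counts, 23 members had a mean of at least 1 FPKM (the deposited value per kilobase of gene model), and 10 had at least 5. P-cadherin (Cdh3), an adhesion protein of basal epithelia, had the highest level per length, at 76.5 ± 5.09 against 68.1 ± 10.7 FPKM (SD, n = 5). Cadherin-11 (Cdh11), a cadherin of mesenchymal cells, followed at 38.6 ± 5.77 against 43.3 ± 6.37 FPKM (SD, n = 5), and N-cadherin (Cdh2), the cadherin of neural and mesenchymal cells, came next at 16.7 ± 1.47 against 23.98 ± 2.83 FPKM (SD, n = 5). In the IL6 shRNA1 libraries the values of these 3 genes did not overlap with one another, and in the controls those of Cdh3 and Cdh11 met at their ends. Below them were Cdh5 at 14.04 against 10.2 FPKM, Cdh10 at 7.18 against 8.77 FPKM, Cdh24 at 6.41 against 8.42 FPKM, Pcdh18 at 4.85 against 8.04 FPKM, Pcdh7 at 5.91 against 6.47 FPKM, Pcdhgc3 at 4.92 against 6.97 FPKM and Pcdhb17 at 5.54 against 6.15 FPKM. Cdh5 overlapped Cdh2 in the IL6 shRNA1 libraries but lay below it in the controls, and it overlapped Cdh10 in the controls but lay above it in the IL6 shRNA1 libraries. From Cdh10 down, the range of each gene overlapped that of the next in both groups. Differences between such neighbours within the same libraries were not tested. The FPKM of gamma members depends on how reads in their shared exons were counted, as described with the clusters.

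Of the type I cadherins, 4 of 5 members were tested and 1, Cdh2, was called, beside 11.8% of all genes tested. It lies on chromosome 18 (GRCm38, 16588877 to 16809246) and stood at 163, 132, 121, 122 and 135 CPM in the IL6 shRNA1 libraries 1 to 5 and 165, 229.8, 160.2, 189 and 232 CPM in the control libraries 1 to 5. Control libraries 2 and 5 were the highest, and IL6 shRNA1 library 1 reached into the range of the lowest controls, so the groups overlapped in CPM. In the deposited FPKM they did not (highest IL6 shRNA1 library 19.2, lowest control 21.1 FPKM). The means were 135 ± 16.8 against 195 ± 34.4 CPM (SD, n = 5), with a log2 fold change of -0.54 (SE 0.12, 95% interval -0.81 to -0.26, edgeR adjusted p = 0.022). Cdh3, the most abundant type I member, stood at 335, 351, 351, 296 and 344 CPM in the IL6 shRNA1 libraries 1 to 5 and 324, 308, 290.0, 330.0 and 239 CPM in the control libraries 1 to 5, and the groups overlapped (log2 fold change 0.17, edgeR adjusted p = 0.23). The ratio of Cdh3 to Cdh2 FPKM was 4.62 ± 0.572 in the IL6 shRNA1 libraries and 2.901 ± 0.705 in the controls (SD, n = 5), and here the libraries of the groups did not overlap. This ratio was formed after the separate values had been seen and was not tested.

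E-cadherin (Cdh1), the main cadherin of epithelial junctions, lies beside Cdh3 on chromosome 8 and was far less abundant, at 2.25 ± 1.82 against 0.8799 ± 0.387 FPKM (SD, n = 5). In CPM its level was 6.63, 5.19, 7.97, 6.47 and 25.9 CPM in the IL6 shRNA1 libraries 1 to 5 and 6.53, 3.17, 4.34, 3.41 and 2.43 CPM in the control libraries 1 to 5. IL6 shRNA1 library 5 stood far above all others, while the other 4 lay between 5.19 and 7.97 CPM, around the highest control. The difference missed the threshold in edgeR (log2 fold change 1.38, edgeR adjusted p = 0.080), DESeq2 called it (adjusted p = 0.014), and without library 5 the value was 0.72 (adjusted p = 0.13). That library also had the highest muscle, skin and endothelial marker sums, at 8962, 858 and 406 CPM. M-cadherin (Cdh15), which marks muscle precursor cells, likewise peaked there, at 6.51 CPM against 0.652 to 2.32 CPM in the controls (log2 fold change 1.35, edgeR adjusted p = 0.12). Without library 5 its value was 0.88 (adjusted p = 0.29). R-cadherin (Cdh4) had 25 counts in all, 16 of them in that same library, and was not tested. The part of muscle, skin and endothelial RNA in these values was not tested.

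**Figure D2:**
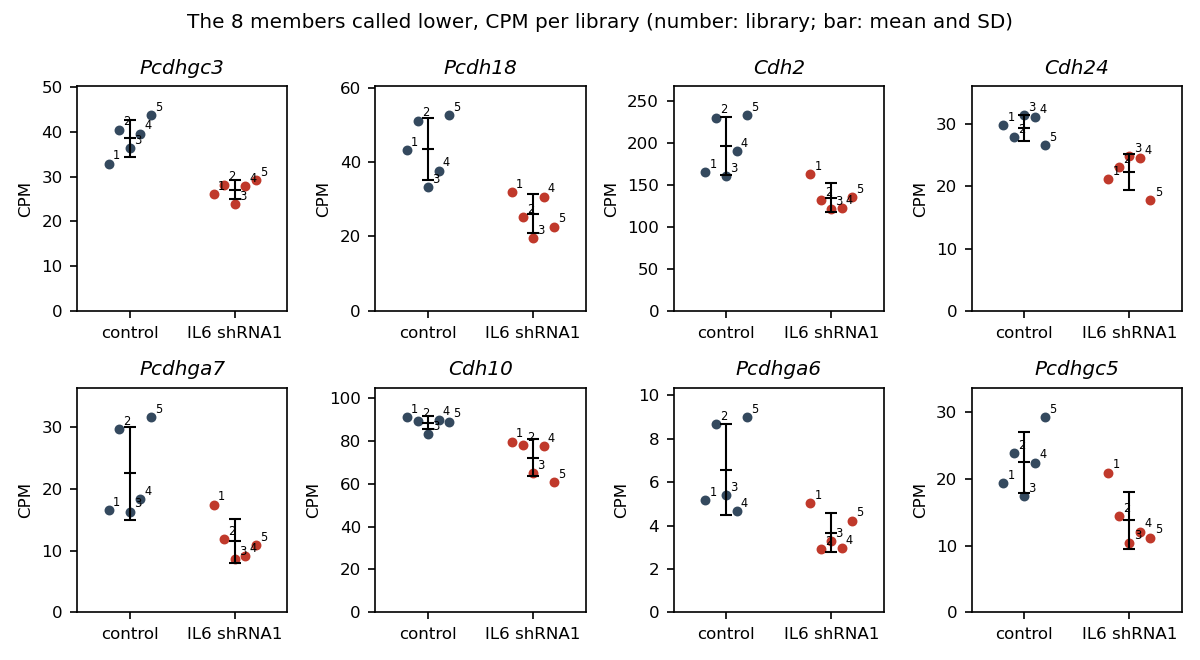
CPM of the 8 called members in every library, numbered by library, with the group mean and SD as bars. For Pcdhgc3, Pcdh18, Cdh24 and Cdh10 every IL6 shRNA1 library lies below every control, and for the other 4 the groups overlap.

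Of the 13 type II cadherins, 6 were tested and 2, Cdh10 and Cdh24, were called, beside 11.8% of all genes tested. Cdh24, a classical cadherin that binds catenins, lies on chromosome 14 (GRCm38, 54631231 to 54641364) and stood at 21.1, 23.1, 24.9, 24.5 and 17.8 CPM in the IL6 shRNA1 libraries 1 to 5 and 29.8, 27.9, 31.4, 31.1 and 26.6 CPM in the control libraries 1 to 5. Every IL6 shRNA1 library was below every control in CPM, with a log2 fold change of -0.40 (SE 0.10, 95% interval -0.61 to -0.18, edgeR adjusted p = 0.028). In the deposited FPKM the groups overlapped (highest IL6 shRNA1 library 7.36, lowest control 7.06 FPKM), and limma on log2(FPKM + 1) did not call Cdh24 (adjusted p = 0.073). Cdh10, known mainly as a cadherin of neurons, lies on chromosome 15 (18818947 to 19014236). Its level was 79.6, 77.8, 64.9, 77.5 and 60.7 CPM in the IL6 shRNA1 libraries 1 to 5 and 91.1, 89.2, 83.1, 89.8 and 88.9 CPM in the control libraries 1 to 5. The groups did not overlap, the means were 72.1 ± 8.65 against 88.4 ± 3.101 CPM (SD, n = 5), with a log2 fold change of -0.29 (SE 0.08, 95% interval -0.48 to -0.11, edgeR adjusted p = 0.043). The call was lost in 9 of the 10 omissions of 1 library, at adjusted p-values of up to 0.088, where the log2 fold change stayed between -0.32 and -0.23. It was lost also on log2(FPKM + 1) with limma (adjusted p = 0.073).

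The most abundant type II member, Cdh11, was not called. It stood at 406, 288, 326, 286 and 422 CPM in the IL6 shRNA1 libraries 1 to 5 and 364, 459, 307, 332 and 489 CPM in the control libraries 1 to 5, and the groups overlapped over most of their range (log2 fold change -0.18, edgeR adjusted p = 0.48). Control libraries 2 and 5 were highest for it, and they also had the highest summed fibroblast markers, at 74609.7 and 89089 CPM. VE-cadherin (Cdh5), the junction protein of blood vessel endothelium, stood at 45.4, 49.8, 51.9, 51.99 and 96.9 CPM in the IL6 shRNA1 libraries 1 to 5 and 43.3, 34.96, 51.3, 50.95 and 32.9 CPM in the control libraries 1 to 5. IL6 shRNA1 library 5 was highest and the remaining libraries overlapped (log2 fold change 0.47, edgeR adjusted p = 0.17). Without that library the value was 0.22 (adjusted p = 0.33), and with the leukocyte covariate the log2 fold changes of Cdh11 and Cdh5 changed sign, to 0.16 and -0.12. None of the 12 endothelial markers was called by edgeR, although all 12 had positive fold changes and 5 had an unadjusted p under 0.05. On the higher side, 2335 of all 15064 genes tested had such a p. DESeq2 called 4 of the endothelial markers higher, beside 1653 of all 15064 genes. The list summed to 209 to 406 CPM in the IL6 shRNA1 libraries and 157 to 248 CPM in the controls. Cdh18, a neuronal cadherin, was at 1.98 against 2.86 CPM (log2 fold change -0.52, edgeR adjusted p = 0.12), and Cdh12 at 0.9802 against 0.984 CPM. Cdh8 had no count in any library, where 3 counts correspond to 0.127 to 0.178 CPM, a limit that covers counting error only. Cdh19, a cadherin of Schwann cells, had 28 counts over all libraries.

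The promoters of Pcdh18, Cdh24 and Cdh10 are shown because they differ in base composition while the genes moved in the same direction. Each sequence is the 240 bases from 250 to 11 bases before the RefSeq transcription start (GRCm38.p6), written 5′ to 3′ on the strand of the gene, with every CG pair in capitals.
Pcdh18: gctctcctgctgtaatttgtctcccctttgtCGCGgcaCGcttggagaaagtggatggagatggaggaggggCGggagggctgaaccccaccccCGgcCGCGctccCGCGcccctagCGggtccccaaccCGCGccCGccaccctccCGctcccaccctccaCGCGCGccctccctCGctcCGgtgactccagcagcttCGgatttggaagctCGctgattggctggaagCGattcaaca
Cdh24: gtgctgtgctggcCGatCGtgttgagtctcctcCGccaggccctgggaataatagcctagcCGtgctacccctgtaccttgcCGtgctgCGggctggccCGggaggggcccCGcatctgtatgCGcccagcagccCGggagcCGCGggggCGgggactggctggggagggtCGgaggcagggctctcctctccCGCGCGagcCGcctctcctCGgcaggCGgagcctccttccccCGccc
Cdh10: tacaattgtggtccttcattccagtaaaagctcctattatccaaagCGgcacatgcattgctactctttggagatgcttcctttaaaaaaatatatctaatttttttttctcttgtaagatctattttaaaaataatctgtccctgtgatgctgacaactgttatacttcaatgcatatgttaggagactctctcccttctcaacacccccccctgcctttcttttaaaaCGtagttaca
They lie at chr3:49757327-49757566 (minus strand), chr14:54641375-54641614 (minus strand) and chr15:18820079-18820318 (plus strand). Pcdh18 has 22 CG pairs in this window and Cdh24 has 21, more than 86.8% and 85.2% of 32851 promoters. The Cdh10 window holds 2, where the median promoter holds 5, and its GC content is 36.2%, beside 67.5% and 72.9%. The E-box CAGGTG (searched on both strands), which SNAI and ZEB repressors bind, and TTCNNNGAA, a motif of STAT factors that reads the same on both strands, were found in none of the 3 windows. Of all promoters, 16.6% and 6.77% hold them. The annotated Cdh10 gene model starts before the RefSeq start used here, so its window lies within the gene span but in no annotated exon.

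The 6 members of other kinds were Cdh13, Cdh16, Cdh17, Cdh23, Cdh26 and Pcdh15, which is listed here beside its binding partner Cdh23. Of these, 4 were tested, all 4 had positive fold changes and none was called by edgeR, where 3 had an unadjusted p under 0.05 (DESeq2 called 2, voom none). T-cadherin (Cdh13), a membrane-anchored cadherin without a tail that binds adiponectin, was the most abundant. Its level was 9.99, 10.8, 10.4, 12.9 and 26.7 CPM in the IL6 shRNA1 libraries 1 to 5 and 8.06, 7.74, 10.6, 9.104 and 4.33 CPM in the control libraries 1 to 5. IL6 shRNA1 library 5 again stood apart (log2 fold change 0.82, edgeR adjusted p = 0.11), and without it the value was 0.47 (adjusted p = 0.21). Cdh23 and Pcdh15 are the partners of the tip link of inner-ear hair cells. Cdh23 was at 1.76 against 1.112 CPM (log2 fold change 0.66, edgeR adjusted p = 0.062) and Pcdh15 at 0.693 against 0.3304 CPM (log2 fold change 1.08, edgeR adjusted p = 0.095), each with overlapping groups. Leaving out single libraries called each of them once, at adjusted p-values of 0.048 and 0.043. Cdh17, an intestinal cadherin, had 205 counts in all, and Cdh16 and Cdh26 had 3 and 16.

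Among the non-clustered protocadherins, Pcdh18 was the only one called. This delta2 protocadherin, whose relatives bind the WAVE actin regulator through their tails, lies on chromosome 3 (49743296 to 49757325) and stood at 31.96, 25.2, 19.7, 30.7 and 22.7 CPM in the IL6 shRNA1 libraries 1 to 5 and 43.3, 51.1, 33.2, 37.7 and 52.6 CPM in the control libraries 1 to 5. The groups did not overlap, and the highest IL6 shRNA1 library was just below the lowest control. The means were 26.04 ± 5.24 against 43.6 ± 8.36 CPM (SD, n = 5), with a log2 fold change of -0.74 (SE 0.16, 95% interval -1.10 to -0.38, edgeR adjusted p = 0.018). Of the delta1 protocadherins, Pcdh7 was at 62.7 against 68.6 CPM (log2 fold change -0.13, edgeR adjusted p = 0.49), Pcdh9 at 14.96 against 14.3 CPM and Pcdh1 at 12.4 against 10.7 CPM, and none of these 3 was called by edgeR, DESeq2 or voom or had an unadjusted p under 0.05. Pcdh12, an endothelial protocadherin, was at 6.11 against 4.96 CPM (log2 fold change 0.30, edgeR adjusted p = 0.40). Pcdh17, another delta2 protocadherin, was at 48.99 against 46.5 CPM (log2 fold change 0.08, edgeR adjusted p = 0.80). Pcdh10 had 58 counts in all and was not tested. Pcdh19 and Pcdh11x could not be assessed. They lie on the part of chromosome X from 75 Mb on, where 384 of 468 protein-coding genes (82.1%) were listed at 0 in all libraries, including Pgk1, Huwe1, Rps4x and Tmsb4x, which most cells use, beside 190 of 465 (40.9%) before it. The cause was not tested.

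The gamma cluster held 21 members, of which 16 were tested and 4 were lower, beside 6.16% of all genes tested. Summed over all gamma members the level was 139.5, 105, 85.3, 91.999 and 112 CPM in the IL6 shRNA1 libraries 1 to 5 and 131, 181, 129, 144 and 196 CPM in the control libraries 1 to 5. IL6 shRNA1 library 1 was the highest of its group and overlapped the lowest controls, and control libraries 2 and 5 were highest of all. The sums were 107 ± 21.1 against 156 ± 30.7 CPM (SD, n = 5). The median log2 fold change of the 16 was -0.56, with 11 below 0. On the lower side 10 had an unadjusted p under 0.05, beside 2358 of all 15064 genes tested. That median was -0.56 without IL6 shRNA1 library 5, -0.45 without the 3 farthest libraries and -0.12 with the leukocyte covariate.

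The C-type genes are the last 3 variable exons of the gamma cluster, and all 3 were below 0. Pcdhgc3, the most widely expressed of them, had the smallest adjusted p of any member. It stood at 26.03, 28.2, 23.9, 27.8 and 29.3 CPM in the IL6 shRNA1 libraries 1 to 5 and 32.9, 40.5, 36.3, 39.6 and 43.7 CPM in the control libraries 1 to 5. Every IL6 shRNA1 library was below every control. The means were 27.04 ± 2.103 against 38.6 ± 4.12 CPM (SD, n = 5), with a log2 fold change of -0.51 (SE 0.09, 95% interval -0.71 to -0.32, edgeR adjusted p = 0.0070). Pcdhgc5 stood at 20.9, 14.4, 10.4, 12.1 and 11.2 CPM in the IL6 shRNA1 libraries 1 to 5 and 19.3, 23.9, 17.4, 22.4 and 29.3 CPM in the control libraries 1 to 5, and IL6 shRNA1 library 1 overlapped the controls (log2 fold change of -0.70, SE 0.20, 95% interval -1.15 to -0.26, edgeR adjusted p = 0.047). The A-type genes as a sum were 36.6 ± 10.3 against 62.2 ± 17.9 CPM, the C-type genes 42.1 ± 4.47 against 62.9 ± 8.09 CPM, and the B-type genes 27.9 ± 7.06 against 30.98 ± 5.44 CPM (SD, n = 5). The differences between these types were not tested.

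Of the A-type genes, Pcdhga7 and Pcdhga6 were called. Pcdhga7 had the largest fold change of the 8 called members and stood at 17.5, 11.9, 8.68, 9.103 and 10.8 CPM in the IL6 shRNA1 libraries 1 to 5 and 16.5, 29.8, 16.3, 18.4 and 31.7 CPM in the control libraries 1 to 5 (log2 fold change of -0.96, SE 0.25, 95% interval -1.51 to -0.40, edgeR adjusted p = 0.036). Its share of all gamma counts was 10.7% in the IL6 shRNA1 libraries and 14.1% in the controls, without overlap between libraries. Pcdhga6 stood at 5.02, 2.91, 3.28, 2.97 and 4.23 CPM in the IL6 shRNA1 libraries 1 to 5 and 5.18, 8.67, 5.41, 4.66 and 9.02 CPM in the control libraries 1 to 5 (log2 fold change of -0.84, SE 0.24, 95% interval -1.36 to -0.31, edgeR adjusted p = 0.046). It and Pcdhgc5 (adjusted p = 0.047) lay just inside the threshold, and Cdh23, Pcdhga2 (-0.90, adjusted p = 0.069) and Cdh1 lay just outside it. Pcdhga5 (-0.70), Pcdhga11 (-0.61), Pcdhga12 (-0.70), Pcdhgb6 (-0.37) and Pcdhgb7 (-0.63) had log2 fold changes below 0 and unadjusted p-values under 0.05, with adjusted p-values from 0.081 to 0.15. For Pcdhgb7 the groups did not overlap. In the other direction, Pcdhgb1 stood at 11.3, 4.84, 4.04, 3.797 and 6.88 CPM in the IL6 shRNA1 libraries 1 to 5 and 3.95, 5.11, 2.36, 2.897 and 3.97 CPM in the control libraries 1 to 5 (log2 fold change 0.76, edgeR adjusted p = 0.14). Its highest value was that of IL6 shRNA1 library 1, and the groups overlapped.

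The beta cluster, whose genes are single exons with no shared constant region, held 22 members, and none of its 16 tested members was called by edgeR, DESeq2 or voom. At an unadjusted p under 0.05, 2 were lower, Pcdhb22 and Pcdhb11 (0.451 against 0.781 CPM, log2 fold change -0.79, edgeR adjusted p = 0.15), and none was higher. The summed level was 124, 79.2, 68.7, 70.9 and 104 CPM in the IL6 shRNA1 libraries 1 to 5 and 92.8, 136, 75.6, 86.1 and 138 CPM in the control libraries 1 to 5, with IL6 shRNA1 library 1 and control libraries 2 and 5 the highest. The groups overlapped, and the median log2 fold change of -0.22 came from values between -0.79 and 0.61. With the leukocyte covariate that median was 0.21, on the other side of 0. Pcdhb22 was at 26.4 against 33.7 CPM (log2 fold change -0.35, edgeR adjusted p = 0.13), Pcdhb17 at 26.1 against 29.2 CPM (log2 fold change -0.16, edgeR adjusted p = 0.73) and Pcdhb20 at 6.195 against 7.701 CPM (log2 fold change -0.31, edgeR adjusted p = 0.28). The alpha cluster was nearly silent. Its 14 entries had 83 counts over all 10 libraries, 6 of them had none, and no alpha member was tested.

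**Figure D3:**
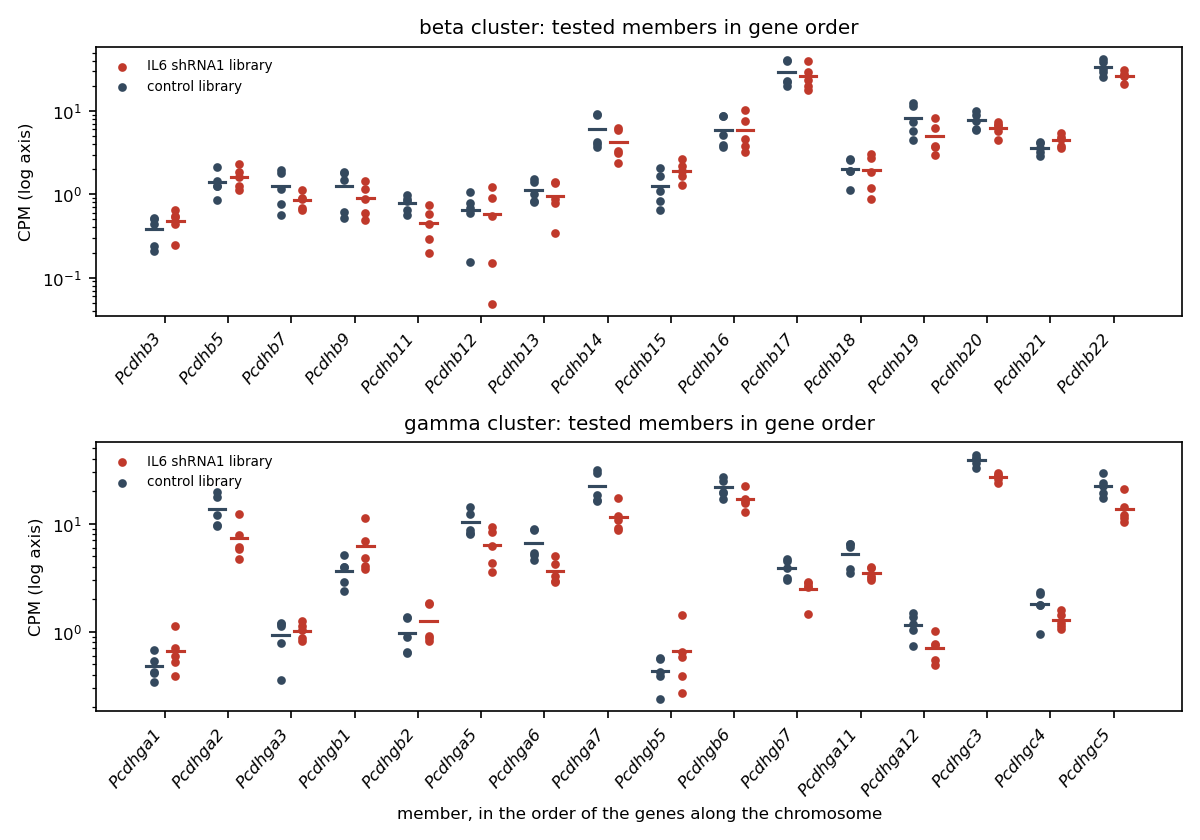
CPM (log axis) of the tested beta and gamma members in their order along the chromosome, with a point per library (IL6 shRNA1 red, control blue) and a line at each group mean. Within each cluster the levels span more than the groups differ, and of the members shown Pcdhgc3 and Pcdhgb7 have groups that do not overlap.

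How the clusters were counted limits these values. Counted on either strand, all 21 gamma members and all 14 alpha members share exon bases with other annotated genes. In the gamma members this covers at least 31.5% of the exon length and, in Pcdhga10, all of it. How reads in shared exons were assigned is not given in the sources used here. However, Pcdhga8 had 52 counts in all. Gm42416, Gm37013, Gm37388 and Gm38182, which share bases of the common gamma exons, had 0 counts in all libraries. Reads of the common exons were therefore not added to every gene that holds them. The deposited FPKM divides by the whole exon length, shared part included, so it understates the level of any gamma member whose count lacks those reads. For Pcdhgc3, CPM per kilobase of exon unshared on either strand was 14.9 against 21.2. That length leaves out 1559 bases shared with a transcript on the opposite strand, and the values would be lower if reads there were counted for Pcdhgc3. Pcdhga10, with no unshared base by this measure, still had 57 counts in all. The antisense transcript BC037039, which is the one that overlaps Pcdhgc3, had 63 counts in all.

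The classical cadherins work with catenins, and of 23 tested catenin and adherens junction genes 1 was higher (Nectin4, 20.1 against 10.5 CPM) and 3 were lower (Magi1, 16.5 against 24.8 CPM; Ctnnal1, 10.3 against 16.8 CPM; Cbll1, 13.7 against 16.9 CPM). The list's median log2 fold change was -0.03. Beside this list and each list below, 11.8% of all genes tested were called (6.16% lower and 5.62% higher). An unadjusted p under 0.05 was found for 31.2% of all genes. No list was tested as a set. Beta-catenin (Ctnnb1) was at 414 against 479 CPM (log2 fold change -0.21, edgeR adjusted p = 0.092), alpha-catenin (Ctnna1) at 288 against 306 CPM and p120-catenin (Ctnnd1) at 36.7 against 41.1 CPM, and none of these 3 was called. Of 9 tested repressors of cadherin genes, Twist1 (26.7 against 57.3 CPM, log2 fold change -1.10, edgeR adjusted p = 0.0015) and Tcf3 (113 against 149 CPM) were lower and Twist2 (1.04 against 0.352 CPM) was higher. Snai2, which represses Cdh1, was at 61.6 against 85.1 CPM (adjusted p = 0.068), Zeb2 at 159 against 194 CPM and Snai1 at 38.6 against 44.7 CPM, and none of these was called. Of 13 proteases that cut cadherins, Adam10 (261 against 315 CPM) was lower, and the gamma-secretase genes Psen2 (38.3 against 25.8 CPM) and Ncstn (186 against 147 CPM) were higher.

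Genes known to act on the protocadherin clusters, through DNA methylation, histone methylation, CTCF and cohesin, were represented by 16 tested genes. All 16 had log2 fold changes below 0, with a median of -0.16, 2 were called lower and none higher, beside 11.8% of all genes called. The median was -0.08 without the 3 farthest libraries and 0.02 with the leukocyte covariate, on the other side of 0, and neither fit called any of the 16 (2 and 1 at an unadjusted p under 0.05). The DNA methyltransferase Dnmt3a stood at 127, 105, 90.96, 102 and 104 CPM in the IL6 shRNA1 libraries 1 to 5 and 152, 182, 139, 147 and 188 CPM in the control libraries 1 to 5. All IL6 shRNA1 libraries were below all controls, with a log2 fold change of -0.61 (SE 0.11, 95% interval -0.85 to -0.37, edgeR adjusted p = 0.0073). The histone methyltransferase Ehmt2 was at 190.2 against 235 CPM (log2 fold change -0.31, edgeR adjusted p = 0.018). Of 16 genes of the WAVE complex and of kinases that bind protocadherin tails, Taok2 (89.96 against 109.9 CPM), Wasf2 (239 against 291 CPM) and Brk1 (115 against 137 CPM) were lower and Ptk2b (90.8 against 56.3 CPM) was higher. Of 15 FAT, Dachsous, CELSR and calsyntenin genes, Clstn2 was higher (4.65 against 1.111 CPM, log2 fold change 2.07, edgeR adjusted p = 0.0083) and none was lower in edgeR, DESeq2 or voom, with 1 lower at an unadjusted p under 0.05. None of the 5 tested desmosomal genes was called by edgeR, DESeq2 or voom, and 3 had an unadjusted p under 0.05 on the higher side. Without IL6 shRNA1 library 5 that number was 1, and the summed level in that library was 384 CPM against 90.003 to 133 CPM in the rest of its group. Without that library the calls were 0 higher and 2 lower among the catenins and junction partners, 2 higher and 0 lower among the proteases, and 0 higher and 1 lower among the WAVE genes and kinases. With the leukocyte covariate edgeR called no gene of these 7 lists, and 0 to 3 genes of each had an unadjusted p under 0.05.

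For 6 of the 8 called members, control libraries 2 and 5 were the 2 highest of the 5 controls, and for 6 of the 8, IL6 shRNA1 library 1 was the highest of its group. Cdh24 ran the other way, with control libraries 2 and 5 the lowest controls and IL6 shRNA1 library 3 the highest of its group. Cdh10 had control libraries 1 and 4 highest, and Pcdhgc3 had IL6 shRNA1 library 5 highest. Control libraries 2 and 5 had the lowest leukocyte sums, at 499 and 677 CPM, and IL6 shRNA1 library 1 had the lowest of its group, at 1140.1 CPM. How often these orders of libraries occur among all genes called lower was not counted. They therefore cannot be read as a trait of the cadherins.

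Of the other marker lists, fibroblasts and pericytes had 1 of 9 lower (Lum, 441 against 860.3 CPM; the sum was 36517 to 68273 CPM in the IL6 shRNA1 libraries and 36376 to 89089 CPM in the controls) and mesothelium 1 of 4 higher (Upk3b, 119.9 against 58.9 CPM; 352 to 450.1 CPM in the IL6 shRNA1 libraries and 139 to 375 CPM in the controls). None of 7 muscle, 4 epithelial, 2 skin and 1 adipocyte markers was called by edgeR, with 3, 0, 2 and 0 at an unadjusted p under 0.05 and 1, 0, 1 and 0 called by DESeq2. Their sums were 60.2 to 8962 CPM in the IL6 shRNA1 libraries and 27.6 to 1086 CPM in the controls for muscle, 99.4 to 119 CPM in the IL6 shRNA1 libraries and 46.5 to 143 CPM in the controls for epithelium, 84.03 to 858 CPM in the IL6 shRNA1 libraries and 17.1 to 102 CPM in the controls for skin and 7.32 to 43.98 CPM in the IL6 shRNA1 libraries and 10.3 to 18.3 CPM in the controls for adipocytes. By deposited FPKM the most abundant gene of each of these lists, and of the leukocyte and endothelial lists, was C1qa for leukocytes (452 against 199 FPKM), Esam for endothelium (13.2 against 9.22 FPKM), Col1a1 for fibroblasts and pericytes (3901 against 4152 FPKM), Acta1 for skeletal muscle (722 against 113 FPKM), Krt8 for epithelium (36.5 against 27.4 FPKM), Lrrn4 for mesothelium (39.2 against 22.1 FPKM), Krt14 for skin (78.8 against 26.3 FPKM) and Fabp4 for adipocytes (5.05 against 3.23 FPKM). The part of these cell types in the members' values was not tested, and the leukocyte covariate fit cannot separate such a part from the group label.

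**Figure D4:**
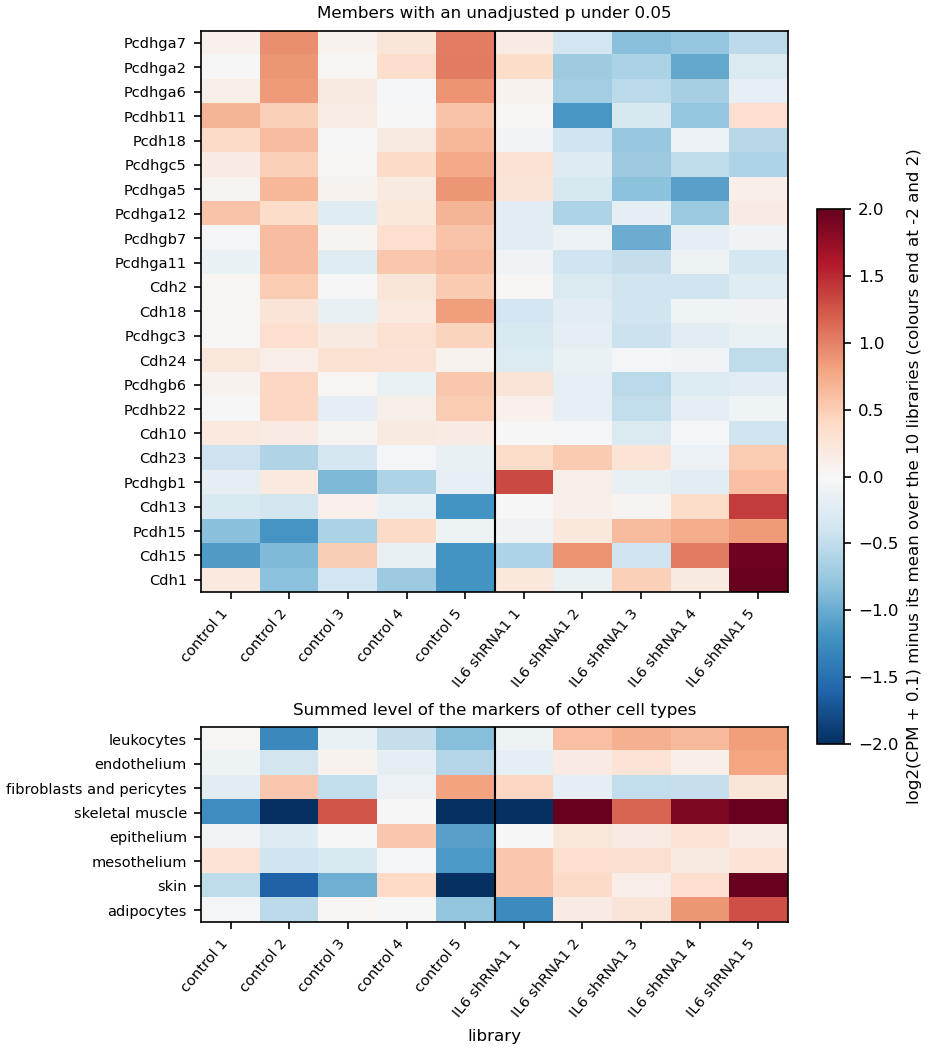
Level in each library, as log2(CPM + 0.1) minus its mean over the 10 libraries, of the 23 members with an unadjusted p under 0.05 (top) and of the summed markers of other cell types (bottom). Colours end at -2 and 2. Control libraries 2 and 5 are reddest for most of the lower members and blue for leukocytes, and IL6 shRNA1 library 5 is reddest for Cdh1, Cdh13 and Cdh15.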

How the data were processed

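RNA sequencing libraries from 10 samples were compared, 5 labelled IL6 shRNA1 and 5 labelled control. Per the submitters' processing notes, builds GRCm38 and mm10 were used, and the tools were STAR 2.7.0f, featureCounts, Subread 1.6.4, Trim Galore 0.6.6, R 4.0.4, FastQC 0.11.9 and SAMtools 1.11. How strand and reads shared by genes were treated, which annotation was counted and how FPKM was made is not given in the sources used here. Raw counts per gene were deposited by the authors, with a table of the authors' FPKM values, which equal count over gene length and column total.

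Counts were tested in R 4.3.3 with edgeR 4.0.16 (filterByExpr with a minimum count of 10, TMM factors, robust glmQLFit, glmQLFTest), with Benjamini-Hochberg adjustment over 15064 genes and calls at an adjusted p under 0.05. Fold changes are IL6 shRNA1 over control, and SE is their standard error. The fit was tested on simulated data. Levels between genes were compared with FPKM. Exon sharing came from GENCODE M21, and promoter sequences came from RefSeq (GRCm38.p6), which held entries for 22 members. DESeq2 1.42.0, limma 3.58.1 (voom, and FPKM with pseudocounts of 1 and 0.1), other scaling factors and filters, a replicate block and omission of each library served as alternatives. Omission of the 3 libraries farthest on the first principal component and a leukocyte covariate (the mean centred log2 CPM of the leukocyte markers) were added after the data were seen. Python 3.11.15 with pandas 2.3.3, scipy 1.17.1 and matplotlib 3.10.9 made tables and figures.

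The members and the gene lists were chosen with earlier results of these data known. The genes named were the called members, the 10 tested members with the highest FPKM, Cdh1, Cdh2, Cdh3, Cdh5, Cdh11, Cdh13, Cdh15 and Cdh19, the 3 members of each cluster with the most counts, members with an unadjusted p under 0.05, up to 4 called genes of each list, Il6, and the most abundant gene of each marker list. Other genes named, and the ratio of Cdh3 to Cdh2, were chosen after their values were seen. The list of Schwann cell and nerve markers is not reported here.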

Additional observations from a re-analysis of the deposited data

Results flagged for a closer look

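In groups of 5 libraries, 1 library was far from the other 4 in 5 of 58 groups checked (29 members, each in 2 groups), where chance gives about 1 in 20 groups. For Cdh1, IL6 shRNA1 library 5 stood at 25.9 CPM and the nearest of its group at 7.97 CPM. The same library was far above its group for Cdh13 (26.7 CPM, nearest 12.9 CPM) and for Cdh5 (96.9 CPM, nearest 51.99 CPM). For Cdh10, control library 3 was lowest of its group at 83.1 CPM, with the nearest control at 88.9 CPM. For Pcdhgb7, IL6 shRNA1 library 3 was lowest at 1.47 CPM, with the nearest at 2.62 CPM.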

How the results depend on the processing

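Of 52 tested members, 8 were called. The count was 7 with median-ratio factors and 8 with upper-quartile factors. Without a filter on low counts, 83 members were tested and 7 called, 5 of them among the 8 (Cdh10, Cdh24 and Pcdhga7 were lost, Cdh6 was added as higher and Pcdha9 as lower). At a minimum of 1 CPM, 42 were tested and the same 8 called. The count was 8 without robust dispersion, 12 with DESeq2, 7 with voom and 7 with FPKM at either pseudocount, 6 of them among the 8 (Cdh10 and Cdh24 were lost, Pcdhga2 was added). An adjusted p under 0.01 left 1 member (and 381 of 1775 genes). Leaving out 1 library gave 2 to 10 members and 864 to 2774 genes, the fewest genes without control library 5 and the most without IL6 shRNA1 library 1. Without the 3 farthest libraries 0 members and 212 genes were called, and with the leukocyte covariate 0 members and 38 genes, where 9 and 6 members had an unadjusted p under 0.05. DESeq2 called 3027 genes and voom 1866. The replicate block, with the number in the titles as a block, left 3 members (Pcdhgc3, Pcdh18 and Cdh24) and 755 genes. The titles do not say whether these numbers pair the libraries. The correlations of same-numbered libraries ran from -0.28 to 0.27 and 3 of 5 were below 0, which shows no pairing but cannot exclude a weak one. None of the 8 called members changed direction under any of these. Changes of sign were followed gene by gene for only 29 of the tested members. Among these 29, the leukocyte covariate reversed the log2 fold change of 8 that were not called. They were Cdh11 (0.162), Cdh15 (-0.058), Cdh5 (-0.122), Pcdhb17 (0.636), Pcdhb20 (0.040), Pcdhb22 (0.069), Pcdhga11 (0.014) and Pcdhgb6 (0.066). Pcdhb17 reversed also without the 3 farthest libraries (0.209). The list is not complete for all 52, as the family medians of the beta cluster (0.21) and of the delta1 protocadherins (-0.03) with this covariate show. Depth limits the 31 members with few counts, which were not tested. The causes of these changes were not tested.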

Other observations

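Some members that were too low to be tested were unevenly spread. Cdh6, a cadherin of kidney and neural crest, had 2, 12, 4, 6 and 11 counts in the IL6 shRNA1 libraries 1 to 5 and 1, 1, 1, 2 and 1 in the control libraries 1 to 5, and the groups did not overlap in CPM. Pcdha9 had 0, 1, 0, 1 and 1 counts against 9, 10, 3, 7 and 3. Both were called by edgeR without the filter on low counts, Cdh6 as higher and Pcdha9 as lower. They were singled out after their values were seen.

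Shares of the gamma cluster's counts differed in both directions. Pcdhgb1 held 5.55 ± 1.62% of them in the IL6 shRNA1 libraries and 2.34 ± 0.538% in the controls (SD, n = 5), with no overlap between libraries. The shares of Pcdhga1 (0.620 against 0.306%) and Pcdhga4 (0.590 against 0.195%) were also higher without overlap, on 113 and 93 counts in all. Pcdhga7 went the other way, at 10.7 against 14.1%, without overlap. The share of Pcdhgc3, whose level was lower, was 26.01 ± 4.38% against 25.1 ± 2.78%, with overlap, so it showed no clear difference. These shares were not tested.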
